A study of Mus musculus with 5 samples.

Results

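The transcription factor Olig2 was mapped together with 2 histone marks in mouse brain gliomas induced with PDGFB, taken 25 days after the virus was injected. This section describes the Olig2 peaks of control tumours where both marks were listed in control tumours and where Olig2cKO tumours had H3K27ac but no H3K4me3 peak. They are called H3K4me3-loss sites below. A script picked every Olig2 peak on chromosomes 1 to 19 that overlapped by at least 1 bp a peak of H3K27ac in Olig2cKO tumours, of H3K27ac in control tumours and of H3K4me3 in control tumours, but none of H3K4me3 in Olig2cKO tumours. It found 1001 such sites among 38527 Olig2 peaks. Since the sites were chosen by the presence and absence of peaks in the 4 histone lists, the marks at these sites are described without a test.

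Olig2cKO tumours carried floxed Olig2 alleles, and control tumours did not. Floxed P53 alleles were present in both genotypes, which also shared the PDGFB virus and a mixed C57Bl/6;129Sv;CD-1 background. The labels used here name no Cre driver and do not say how many animals went into a library. Each mark was profiled in 1 library per genotype, and Olig2 in 1 library of control tumours. A difference between genotypes thus compares 2 single libraries, without replicates and without a p-value. The lists held 67928 H3K27ac and 47634 H3K4me3 peaks in Olig2cKO tumours on these chromosomes, against 55323 and 43472 in control tumours, and 38527 Olig2 peaks. The depth of the libraries is unknown, as the lists carry no read numbers. Loss here stands for a missing list entry and does not show that the mark itself was gone. The removal of Olig2 and the labelled tissue were not checked against genes, since gene positions on mm9, the build of the files, were not used here. Peaks are given by mm9 position, counted from 1, and no genes or sequences are attached to them.

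Olig2 is a basic helix-loop-helix factor of the oligodendrocyte lineage that binds E-box elements and is expressed in progenitor-like glioma cells. H3K27ac, laid down by p300 and CBP, marks active promoters and enhancers. H3K4me3, laid down by SET1 and MLL complexes, is strong and broad at active promoters, and a weak H3K4me3 signal can be seen at very active enhancers.

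H3K4me3-loss sites were strongly acetylated regions with a weak and narrow H3K4me3 peak in control tumours. They were set beside the 16369 Olig2 sites that carried both marks in both genotypes, called retained sites here. The strength of a peak is given by its score from the authors' peak calling, and scores are compared only inside one list. The control H3K4me3 peak had a median score of 84.5 (quartiles 62.2 and 128.0) at the loss sites and 851 (262 and 1775) at the retained sites. Its median width was 709 bp at the loss sites and 1507 bp at the retained sites. The control H3K4me3 peak ranked in the lowest 25% of its list by score at 756 loss sites (75.5%, 95% interval 72.7 to 78.2) and at 1823 retained sites (11.1%, 10.7 to 11.6). Its median width was 624 bp at these 756 loss sites and 695 bp at these 1823 retained sites. A narrow H3K4me3 peak was thus not particular to the loss sites. The control H3K4me3 peak reached the upper 50% of the list at 44 loss sites (4.40%), against 69.0% of the retained sites. Intervals are exact binomial ones for counting error alone, and peaks close to each other may depend on each other.

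Acetylation at the loss sites was not weak. The control H3K27ac peak had a median score of 471 at the loss sites and 468 at the retained sites, and its median rank in the control list was at percentile 79.7 and 79.5. It lay in the upper 25% of the control list at 598 loss sites (59.7%, 56.6 to 62.8) and at 57.6% of the retained sites. The 2 classes were less alike among sites with control H3K4me3 in the lowest 25%. There the median percentile was 79.2 at the 756 loss sites and 73.2 at the 1823 retained sites. In the Olig2cKO list the rank was lower at the loss sites, with a median percentile of 71.8 against 82.5 at the retained sites. There, 442 loss sites (44.2%, 41.1 to 47.3) lay in the upper 25%, against 63.0% (62.2 to 63.7) of the retained sites. At the same 756 loss and 1823 retained sites, the median percentiles in the Olig2cKO list were 72.0 and 81.0. Since the 2 H3K27ac lists differ in length, a rank in one and a rank in the other do not show a change. The plot of score deciles shows these 3 distributions.

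**Figure D1:**
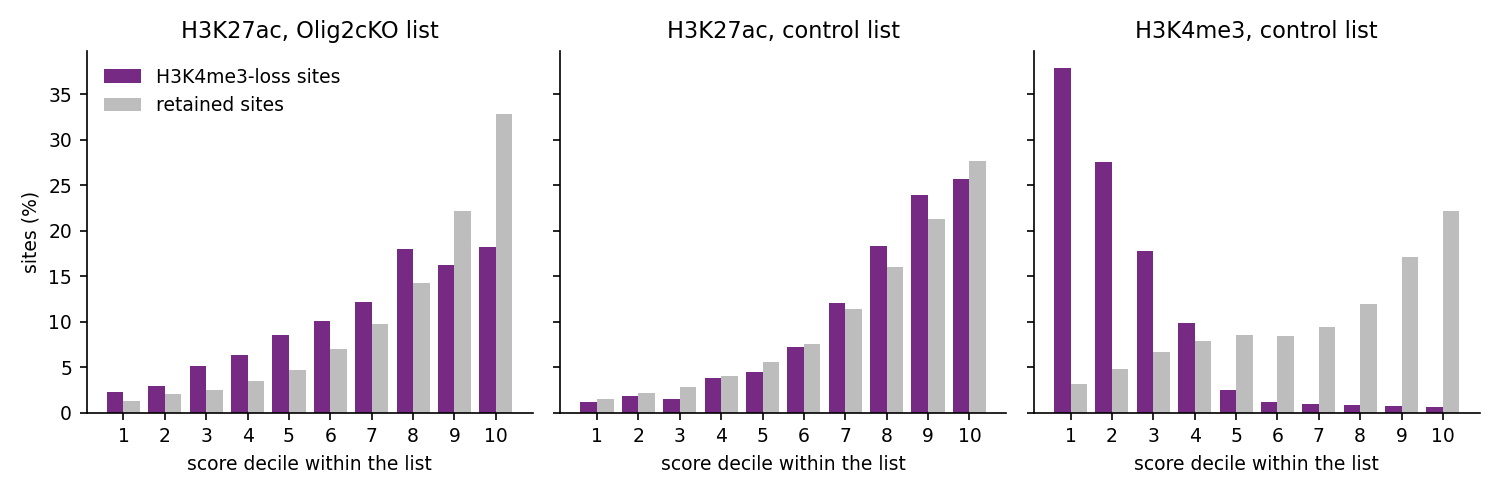
Percentage of the 1001 H3K4me3-loss sites (purple) and the 16369 retained sites (grey) in each score decile of the list named above each panel, with 1 as the lowest decile. Control H3K4me3 sat in the lowest decile at 379 loss sites, while H3K27ac of both genotypes lay mostly in the upper deciles.

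Loss of the listed H3K4me3 peak went with how weak that peak was in control tumours. Of the 17370 Olig2 sites with both marks in control tumours and H3K27ac in Olig2cKO tumours, the 1001 loss sites made up 5.76% (5.42 to 6.12). Set against all 18370 Olig2 sites with both marks in control tumours, they made up 5.45%, while 4.53% kept H3K4me3 and lost H3K27ac and 0.909% had neither mark in Olig2cKO tumours. Without regard to acetylation, an Olig2cKO H3K4me3 peak was missing at 6.9% of all Olig2 sites with control H3K4me3 and at 8.14% of all control H3K4me3 peaks. The share of loss sites was 42.2% (38.9 to 45.5) in the lowest score decile of control H3K4me3, 25.9% in the second, 14.1% in the third and 7.13% in the fourth. It was 1.77% in the fifth decile and 0.165% (0.0607 to 0.360) in the highest, where 6 of 3628 sites were loss sites. These shares describe the values that chose the sites, so they are no independent result.

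**Figure D2:**
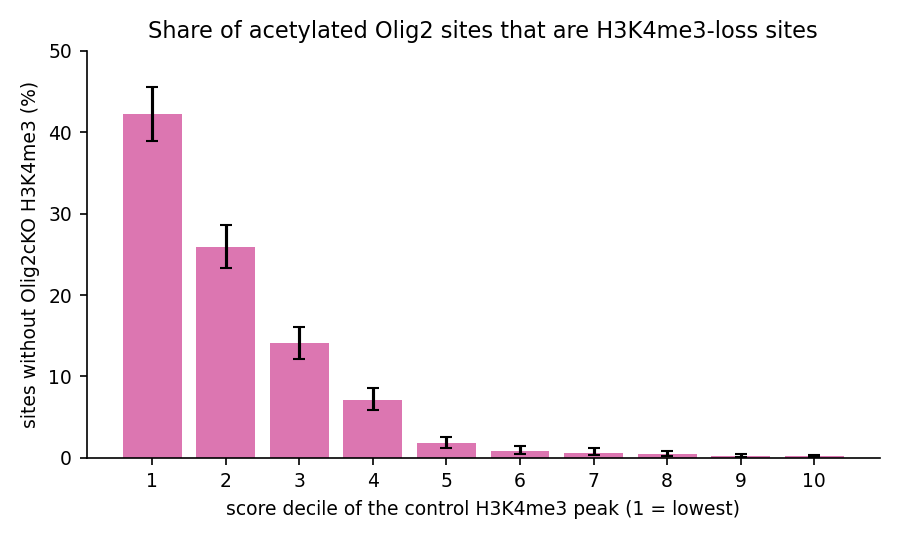
Percentage of Olig2 sites with both marks in control tumours and H3K27ac in Olig2cKO tumours that had no Olig2cKO H3K4me3 peak, by score decile of the control H3K4me3 peak. Bars are shares and error bars are exact 95% binomial intervals. The share was 42.2% in the lowest and 0.165% in the highest decile.

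Olig2 itself was mapped at the loss sites at a strength between that of other classes of acetylated Olig2 sites. The median Olig2 score was 110.0 (quartiles 73.4 and 181) at the loss sites. It was 124 (78.0 and 218) at the weak retained sites, the 1823 retained sites whose control H3K4me3 was in the lowest 25% of its list. It was 90.6 (65.4 and 143) at the 5393 distal acetylated sites, which had H3K27ac in both genotypes and H3K4me3 in neither. The quartiles of the 3 classes overlap widely. Among sites with control H3K4me3 in the lowest 25%, loss sites made up 33.3% (28.7 to 38.3), 29.8%, 32.6% and 25.2% (22.5 to 28.1) of the 4 Olig2 score quartiles, low to high. The Olig2 peak was 937 bp wide in the median at the loss sites and 795 bp at the distal acetylated sites. At the weak retained sites it was 962 bp wide.

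Weak H3K4me3 peaks were also unlisted in Olig2cKO tumours where no Olig2 peak lay. Among control H3K4me3 peaks that overlapped H3K27ac in both genotypes, 1063 of 18793 with Olig2 (5.66%, 5.33 to 6.00) and 561 of 7249 without Olig2 (7.74%, 7.13 to 8.38) had no Olig2cKO partner. In the lowest score quartile these shares were 28.7% (27.1 to 30.4) with Olig2 and 25.6% (23.7 to 27.7) without. In the second quartile they were 4.99% (4.33 to 5.72) with Olig2 and 4.19% (3.31 to 5.21) without, and the intervals overlap in both quartiles, which does not show that the shares are alike. In the upper 2 quartiles 25 of 11930 peaks with Olig2 and 9 of 3578 without had no partner. The lowest quartile held 2934 of the 18793 peaks with Olig2 and 1856 of the 7249 without. The shares over all scores thus compare unlike mixes of peak strength.

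At most sites the whole H3K4me3 peak was unlisted in Olig2cKO tumours. At 958 loss sites (95.7%, 94.3 to 96.9) no control H3K4me3 peak under the Olig2 peak overlapped any Olig2cKO H3K4me3 peak. At the other 43 sites a control H3K4me3 peak still had an Olig2cKO partner, which stopped short of the Olig2 peak, so the name of the class describes an edge there. These 43 edge sites had wider control H3K4me3 peaks, with a median of 1711 bp against 694 bp at the 958 sites. Their Olig2cKO H3K4me3 peak began a median of 154 bp from the Olig2 peak, against 11889 bp at the 958 sites.

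Both the loss sites and the distal acetylated sites were chosen for having no Olig2cKO H3K4me3 peak at the site, and their shares with one nearby had overlapping intervals at 1 kb and at 10 kb but not at 100 bp. An Olig2cKO H3K4me3 peak lay within 100 bp of 2.50% (1.62 to 3.66) of the loss sites and 0.612% (0.422 to 0.858) of the distal acetylated sites. Among the 43 edge sites, whose control H3K4me3 peak kept an Olig2cKO partner, this share was 39.5%. At the 958 loss sites with an unlisted whole peak it was 0.835%, inside the interval of the distal acetylated sites. The gap at 100 bp thus came mostly from the edge sites. The nearest Olig2cKO H3K4me3 peak lay a median of 11114 bp (quartiles 4656 and 24610) from the loss sites, against 12451 bp (5352 and 25827) from the distal acetylated sites. It lay within 1 kb of 81 loss sites (8.09%, 6.48 to 9.96) and 6.30% of the distal acetylated sites. Within 10 kb the shares were 45.8% (42.6 to 48.9) and 43.1% (41.7 to 44.4). A strong control H3K4me3 peak, from the upper 50% of its list and not touching the Olig2 peak, lay within 10 kb of 190 loss sites (interval 16.6 to 21.6%) and of 19.5% of the distal acetylated sites. The control H3K27ac peak of the site held an Olig2cKO H3K4me3 peak at another place at 78 loss sites (7.79%, 6.21 to 9.63).

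**Figure D3:**
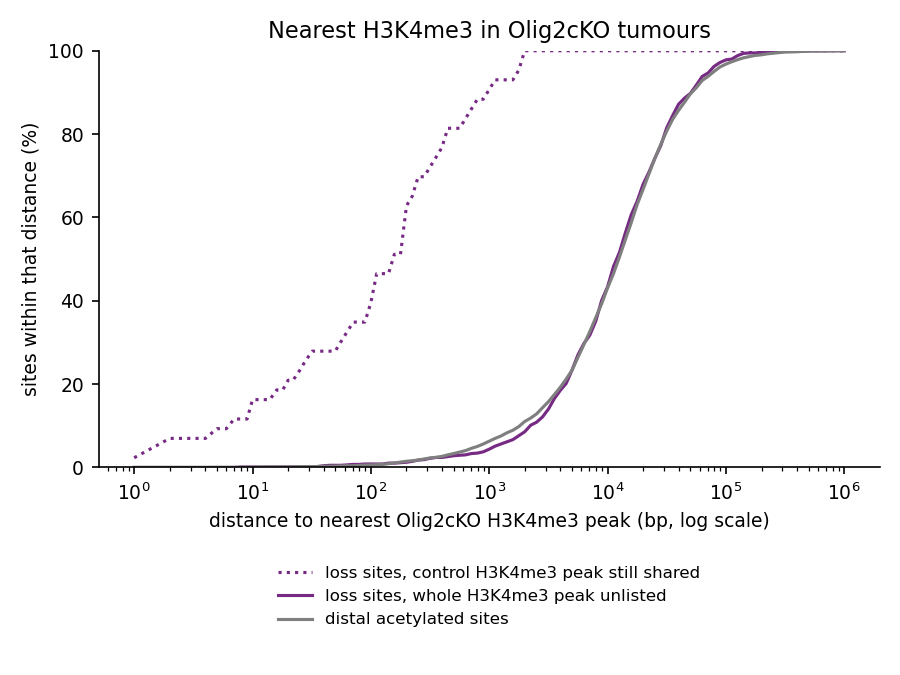
Cumulative percentage of sites against the distance in bp (log scale) from the Olig2 peak to the nearest Olig2cKO H3K4me3 peak. The 958 loss sites with an unlisted whole peak (solid purple) and the 5393 distal acetylated sites (grey) run together around medians of 11889 and 12451 bp, and the 43 edge sites (dotted) lie within 1809 bp.

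In control tumours the weak H3K4me3 peak sat inside the acetylated region and over the Olig2 peak. Of the 1014 control H3K4me3 peaks under loss sites, 935 (92.2%, 90.4 to 93.8) lay wholly inside control H3K27ac, against 44.5% (43.8 to 45.2) of the 19214 under retained sites. At the weak retained sites the share was 90.4%, so this went with a weak H3K4me3 peak in general. The centre of the Olig2 peak lay inside a control H3K4me3 peak at 792 loss sites (79.1%, 76.5 to 81.6). At the weak retained sites this share was 82.8% (81.0 to 84.5). At the 756 loss sites with control H3K4me3 in the lowest 25% of its list it was 76.7% (73.5 to 79.7). Control H3K4me3 covered a median of 63.8% of the Olig2 peak at the loss sites and 93.8% at the retained sites. The median was 64.3% at the weak retained sites and 58.5% at those 756 loss sites. Coverage below that of all retained sites was thus not particular to the loss sites, though it was lowest at these 756. H3K27ac covered the whole Olig2 peak at 786 loss sites (78.5%, 75.8 to 81.0) in Olig2cKO tumours and at 875 (87.4%, 85.2 to 89.4) in control tumours. For the weak retained sites these shares were 85.3% in Olig2cKO tumours and 82.1% in control tumours. At the threshold of the rule, 21 loss sites had at most 100 bp of control H3K4me3, and 25 had an Olig2cKO H3K4me3 peak within 100 bp. Just outside it, 43 retained sites overlapped Olig2cKO H3K4me3 by at most 100 bp.

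The acetylation that was kept was narrower in Olig2cKO tumours. Among 965 H3K27ac peaks under loss sites with exactly 1 partner in the other genotype, the median width was 2055 bp in Olig2cKO tumours and 2352 bp in control tumours. Olig2cKO minus control, the widths differed by a median of -242 bp (quartiles -663 and 177). The Olig2cKO peak was the wider one in 340 pairs (35.2%, 32.2 to 38.3) and the narrower one in 624. All 42189 such pairs of the 2 lists had a median difference of 75 bp, with the Olig2cKO peak wider in 57.1% of them (56.7 to 57.6). The weak retained sites had a median difference of 160 bp with 62.7% (60.4 to 65.0) wider, and the distal acetylated sites 62 bp with 54.8% (53.4 to 56.2) wider. All retained sites had a median difference of 7 bp with 50.9% (50.1 to 51.7) wider. Peak width may vary with sequencing depth, whose part in these differences was not tested.

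The narrower acetylation was seen in the median of each width class. When pairs were grouped by their mean width into quartiles of all pairs, the median differences at the loss sites were -160, -288, -310 and -221 bp, narrow to wide. The Olig2cKO peak was still the wider one in 30.5% to 40.2% of the loss-site pairs of each class. At the weak retained sites the median differences were 21.5, 131, 161 and 238 bp, and over all pairs -3, 72, 119 and 239 bp. At all retained sites they were -35, -15, 34 and 114 bp. A small negative difference in the narrow classes was thus not particular to the loss sites. The mirror class had differences of the opposite sign. At the 1437 H3K4me3-gain sites, Olig2 peaks with H3K27ac in both genotypes and H3K4me3 in Olig2cKO tumours alone, it was 346 bp, and the Olig2cKO peak was the wider one in 75.1% (72.7 to 77.3). These gain sites made up 8.07% of the Olig2 sites with H3K27ac in both genotypes and Olig2cKO H3K4me3, and over all Olig2cKO H3K4me3 peaks 21.5% had no control partner. Their H3K4me3 peak was weak as well, with a median at percentile 18.6 of the Olig2cKO list. In both classes most H3K4me3 peaks thus stood near the lower end of their list, and both were chosen by overlap with the same 4 lists.

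**Figure D4:**
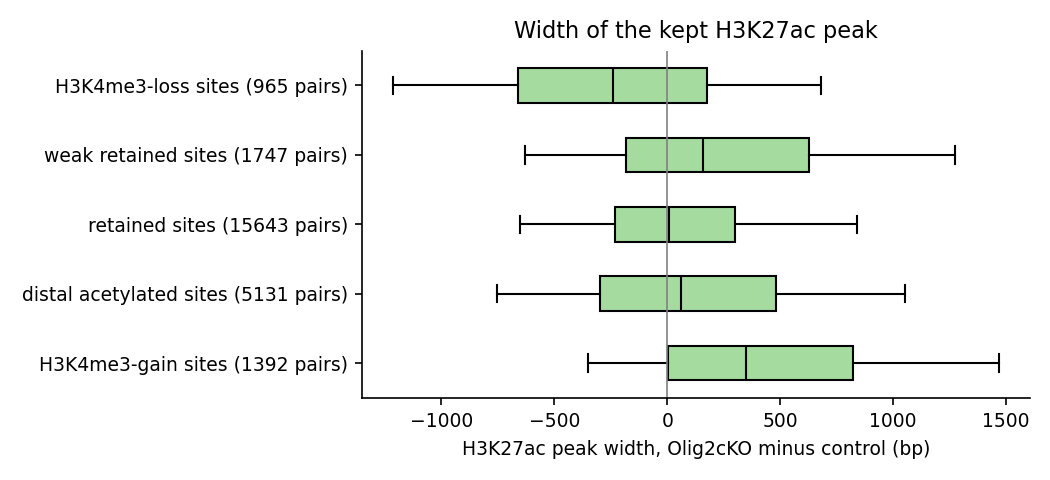
Difference in H3K27ac peak width (bp), Olig2cKO minus control, in peaks that pair 1 to 1 under each class of Olig2 site. Lines in boxes are medians, boxes span quartiles and whiskers the 10th to 90th percentiles. The median was -242 bp at the loss sites and 346 bp at the gain sites.

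Acetylation was also followed outward from the Olig2 peak. At the loss sites, H3K27ac coverage was lower in Olig2cKO tumours at the centre, 1 kb and 2 kb, and higher at 3 kb and 5 kb. At 1 kb from the centre of the Olig2 peak, an H3K27ac peak covered 50.1% of the loss sites in Olig2cKO tumours and 60.1% in control tumours. At the weak retained sites the values were 60.4% in Olig2cKO tumours and 52.4% in control tumours, and at the gain sites 56.1% and 40.2%. At the centre itself, 96.8% of the loss sites were covered in Olig2cKO tumours and 98.4% in control tumours. The weak retained sites stood at 96.5% and 98.0% there, and the gain sites at 97.6% and 97.4%. The 2 curves of the loss sites were close at 2 kb, with 16.1% in Olig2cKO tumours and 16.8% in control tumours. At 3 kb they stood at 9.24% in Olig2cKO tumours and 7.79% in control tumours, and at 5 kb at 7.64% and 7.09%. Coverage at 3 kb was 8.80% in Olig2cKO and 6.36% in control tumours at the weak retained sites. At the gain sites it was 6.92% and 4.70%.

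**Figure D5:**
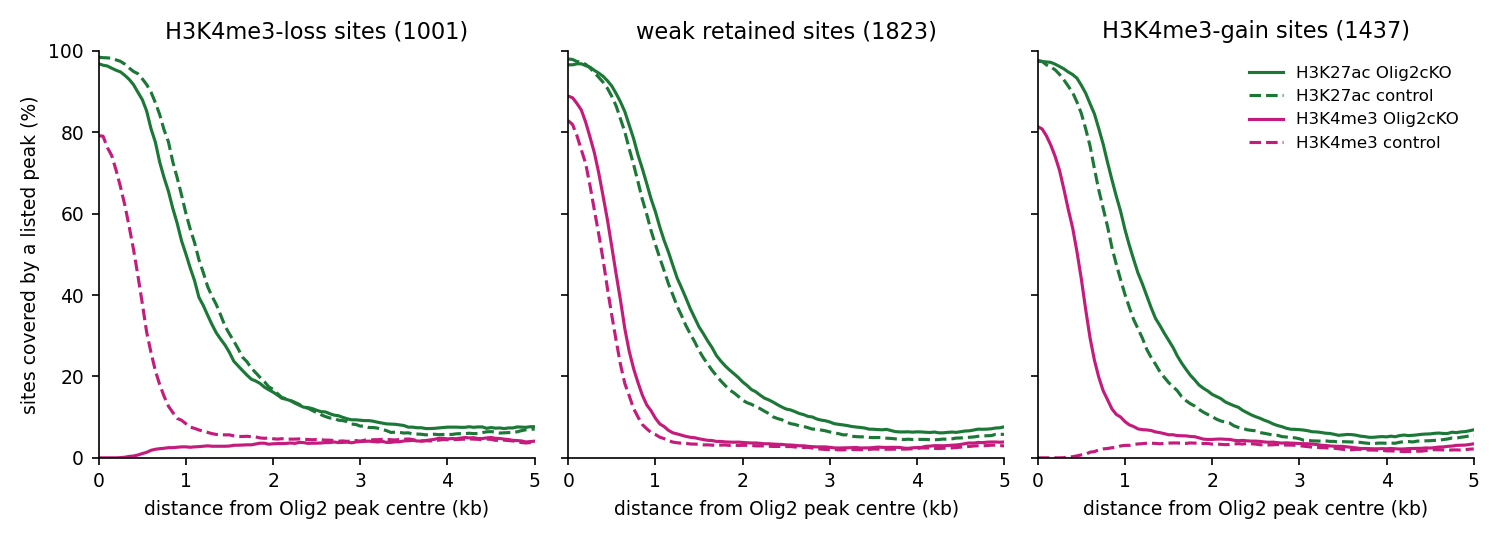
Percentage of sites covered by a listed peak against the distance (kb) from the centre of the Olig2 peak, both sides averaged, with Olig2cKO as solid and control as dashed lines for H3K27ac (green) and H3K4me3 (pink). H3K27ac of Olig2cKO tumours runs below that of control tumours at 1 kb from the loss sites (50.1% against 60.1%) and above it at the weak retained and gain sites.

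Among weak sites, the strength of acetylation in either genotype went with the class in opposite ways. Where control H3K4me3 was in the lowest 25%, loss sites made up 38.0% (30.5 to 45.8), 42.0%, 33.1% and 23.7% (21.5 to 26.0) of the score quartiles of Olig2cKO H3K27ac, low to high. Over the score quartiles of control H3K27ac, the shares were 17.8% (12.6 to 24.1), 20.7%, 28.9% and 33.4% (30.9 to 36.1). Across the 1001 loss sites, the scores of the Olig2cKO and control H3K27ac peaks ranked alike (Spearman's rho 0.68). Control H3K4me3 and Olig2 scores did not (rho -0.02). The scores came from separate libraries of the same genome positions, and sites are not replicates.

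The loss sites were scattered, but their scatter was not set beside that of other classes of Olig2 sites. They lay on 997 different control H3K27ac peaks, and 42 had another loss site within 10 kb. They fell in 731 windows of 1 Mb, of which 532 held a single site. By chromosome they made up 4.23% (chromosome 10) to 7.17% (chromosome 4) of the sites with both marks in control tumours and kept H3K27ac. The highest numbers of loss sites in 1 window, 5 each, were found in the window from 128000001 to 129000000 of chromosome 4 (of 24 sites of that kind), the window from 113000001 to 114000000 of chromosome 5 (of 11) and the window from 81000001 to 82000000 of chromosome 12 (of 21). The next windows, from 169000001 to 170000000 and from 173000001 to 174000000 on chromosome 2, held 4 each, as did 11 windows in all.

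Loss sites in the middle of the range of control H3K4me3 scores were typical in that score and not in acetylation. The 3 sites nearest the median control H3K4me3 score were those from 185340933 to 185341992 of chromosome 1, from 57142901 to 57143889 of chromosome 4 and from 77767379 to 77768046 of chromosome 12. At the site on chromosome 1 the H3K27ac peak was 1678 bp wide in Olig2cKO tumours and 3439 bp in control tumours, and the control H3K4me3 peak was 817 bp wide. At the site on chromosome 4 the H3K27ac widths were 547 bp in Olig2cKO tumours and 3459 bp in control tumours. At the site on chromosome 12 they were 891 bp in Olig2cKO tumours and 1173 bp in control tumours. All 3 had a narrower H3K27ac peak in Olig2cKO tumours, and their Olig2 scores of 85.7, 65.7 and 52.7 lay in the lower 50% of the Olig2 list. Their H3K27ac peaks stood at percentiles 80.1, 1.12 and 5.13 of the Olig2cKO list and 53.6, 49.1 and 53.0 of the control list.

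A few loss sites had strong H3K4me3 in control tumours. The highest control H3K4me3 score, 2804, stood at the Olig2 peak on chromosome 7 from 26504984 to 26505437, and the fourth, 2073, at that on chromosome 14 from 55269837 to 55270475. Both are edge sites, with an Olig2cKO H3K4me3 peak still listed 62 bp and 145 bp away. The strength of that Olig2cKO peak is not given here. At the other 3 of the 5 highest the whole H3K4me3 peak was unlisted in Olig2cKO tumours.

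On chromosome 17 from 34333763 to 34335523, control H3K4me3 scored 2359 over 2870 bp, and the nearest Olig2cKO H3K4me3 peak was 4862 bp away. The H3K27ac peak there scored 383 over 6243 bp in Olig2cKO tumours and 689 over 2652 bp in control tumours. A second site on chromosome 17, from 34323794 to 34324939, lay within 10 kb of the first, so the 2 are neighbours. The second site had a control H3K4me3 score of 2084, and the nearest Olig2cKO H3K4me3 peak was 15446 bp away. Its H3K27ac peak scored 91.0 over 7883 bp in Olig2cKO tumours and 747 over 2080 bp in control tumours. Both sites had a wider H3K27ac peak in Olig2cKO tumours, at percentiles 78.1 and 25.8 of the Olig2cKO list. On chromosome 16 from 38087957 to 38090299, control H3K4me3 scored 2065 but covered 9.65% of the Olig2 peak. The H3K27ac peak at that site scored 1021 over 1701 bp in Olig2cKO tumours and 1687 over 2517 bp in control tumours. Scores of the Olig2cKO and control lists lack a common scale, so these pairs of scores do not show a change.

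The loss sites with the strongest Olig2 binding had weak H3K4me3 in control tumours and differed in acetylation. The highest Olig2 score, 1130, lay on chromosome 17 from 35920415 to 35921650, where control H3K4me3 scored 53.1 over 433 bp. Its H3K27ac peak was 1845 bp wide in Olig2cKO tumours and 2106 bp in control tumours. On chromosome 4 from 119609474 to 119611755 the Olig2 score was 942, and the H3K27ac peak was at percentile 93.3 of the Olig2cKO list and 71.3 of the control list. On chromosome 14 from 25369779 to 25370972 the Olig2 score was 916, with H3K27ac at percentile 99.5 of the Olig2cKO list and 90.9 of the control list. On chromosome 4 from 129386183 to 129387470 the score was 880, with H3K27ac at percentile 28.5 of the Olig2cKO list over 6138 bp and 94.1 of the control list over 2748 bp. On chromosome 17 from 27184601 to 27186208 the score was 844, with H3K27ac at percentile 96.7 of the Olig2cKO list and 94.5 of the control list. The H3K27ac peak was narrower in Olig2cKO tumours at 1 of these 5 sites, the one with the highest Olig2 score. For sites named by position it is not given whether the H3K27ac peaks had exactly 1 partner. The pairs behind the median difference over the loss sites all did.

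The 5 sites farthest from any Olig2cKO H3K4me3 peak were 181124 to 464012 bp from one. The first, from 158692848 to 158693423 of chromosome 3, was 464012 bp away from one. The next, from 124280959 to 124281656 of chromosome 10 and from 46929368 to 46930526 of chromosome 2, were 272500 and 258802 bp away. The last, from 45232212 to 45233030 of chromosome 6 and from 72743057 to 72743556 of chromosome 10, were 219294 and 181124 bp away. Their control H3K4me3 scores were 208, 64.3, 51.6, 105 and 237 in this order. The H3K27ac peak was narrower in Olig2cKO tumours at all 5, with widths of 2792, 3184, 2660, 983 and 1054 bp against 4490, 3691, 3567, 1435 and 1822 bp in control tumours. In the same order, their H3K27ac peaks stood at percentiles 42.5, 92.4, 96.9, 53.8 and 54.6 of the Olig2cKO list and 83.1, 95.1, 98.3, 74.9 and 73.0 of the control list.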

How the data were processed

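The 5 deposited lists hold peaks of 1 library each, with a position and a score per peak from the authors' peak caller. Per the submitters' processing notes, the tools were CASAVA, Bowtie2 and MACS on mm9; versions, settings and any input are not given in the sources used here. Scores start at 50 and lack a common scale, so they rank peaks only inside a list. Percentiles count all peaks of the list.

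Overlaps of at least 1 bp were found with numpy 2.4.6 and pandas 2.3.3 under Python 3.11.15. bedtools 2.31.1 gave the same 1001 sites, and the overlap code was checked on simulated lists. Where a site overlapped more than 1 peak of a list, the highest score was used. Shares carry exact (Clopper-Pearson) 95% intervals from scipy 1.17.1. Alternatives changed the overlap, the score threshold and the list lengths. Figures were drawn with matplotlib 3.10.9.

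The members and classes were chosen with earlier results of these data known. Regions were named by rule: the 5 sites with the highest control H3K4me3 score, the 5 with the highest Olig2 score, the 5 farthest from Olig2cKO H3K4me3, the 3 nearest the median score and the 5 windows with most sites. Planned motif and gene lists were not used here, since no mm9 sequence or annotation was used. The 674 Olig2 peaks on other chromosomes were left out. Part of the genotype that both groups share is not reported here.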

Additional observations from a re-analysis of the deposited data

How the results depend on the processing

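No paired analysis was possible because each group had 1 library. Across 6 alternatives, the kept H3K27ac stayed narrower in Olig2cKO tumours, with a median difference of -75 bp at the smallest, when the upper 50% of each list was used. Without H3K27ac peaks of 6 kb or more, an alternative added after the data were seen, the difference was -251 bp.

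The number of loss sites depended on the lists. It was 191 with the upper 50% of each list and 44 with the upper 50% of control H3K4me3 alone, and 927 to 1250 under the other alternatives. Their share of sites with both control marks and kept H3K27ac was 6.86% when 50% of the shorter peak had to overlap, 5.30% when Olig2cKO peaks up to 1 kb apart counted, 2.99% with the upper 50% of each list, 7.43% with Olig2cKO lists cut to control length and 0.388% with the upper 50% of control H3K4me3.

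Whole-peak loss held for 90.05% of the sites with 50% overlap, 98.6% with the 1 kb distance, 97.9% with the upper 50% of each list and 61.4% with the upper 50% of control H3K4me3. An Olig2cKO H3K4me3 peak lay within 1 kb of 16.3%, 0%, 12.6% and 38.6% of the sites under these 4 alternatives, where 0% follows from the construction of the second. The control H3K27ac peak held Olig2cKO H3K4me3 elsewhere at 14.4%, 2.37%, 3.66% and 34.1%. With the upper 50% of each list and of control H3K4me3 alone, control H3K4me3 covered 90.6% and 83.1% of the Olig2 peak and its median percentile was 54.5 and 68.5, since weak peaks were left out. The other 17 values moved by less than their counting error, or, for the number of sites, by less than 1.5 times. The depth of the libraries is unknown, and each group had a single one.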
